A study of Rattus norvegicus with 57 samples.

Results

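The 8 genes described here encode the urea cycle of the rat liver: Nags, Cps1, Otc, Ass1, Asl and Arg1 for its enzymes, and Slc25a15 and Slc25a13 for its mitochondrial carriers. They were chosen by name. A probe set, the group of probes that reads 1 transcript on the array, was assigned to a gene when it was annotated to that symbol and no other. For each gene the probe set of the highest mean log2 signal was used, and 16 probe sets carried 1 of the 8 symbols. All 8 genes passed the filter on low values and are part of the 10725 genes tested.

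Livers came from male Han Wistar rats, 8 to 10 weeks old, that received methapyrilene, an antihistamine known as a rat liver toxicant, orally each day. The doses were 30 or 80 mg/kg body weight, diluted in carboxymethylcellulose, and control animals received this vehicle without the drug (0 mg/kg). Livers were taken on days 4, 8 and 15, and on day 24, which followed 14 days of dosing and 10 days of recovery without it. The labels speak of 6 animals in a randomised group, and 57 arrays of whole liver RNA were analysed here in 12 groups of dose and day, each with 5 arrays except control day 24, 30 mg/kg day 24 and 80 mg/kg day 4, which had 4. Signals are MAS5 signals on a linear scale, a measure of brightness that the authors scaled to the same mean on every array. Changes are differences of mean log2 signal from the control group of the same day, so that the comparisons of both doses on a day share their control arrays.

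The urea cycle turns ammonia and the amino group of aspartate into urea, and is carried out mainly by hepatocytes around the portal vein. Its first steps lie in the mitochondrion, where N-acetylglutamate, made by Nags, switches on Cps1, and Otc joins carbamoyl phosphate to ornithine to give citrulline. Citrulline leaves in exchange for ornithine through Slc25a15, Ass1 joins it in the cytosol to aspartate that Slc25a13 (citrin) exports, Asl splits argininosuccinate into arginine and fumarate, and Arg1 splits arginine into urea and ornithine.

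The genes that define hepatocytes were bright on all arrays. All 9 measured hepatocyte markers lay above the median of all values on all 57 arrays. Of 7 biliary markers, Krt19 and Epcam lay above it on all 57, Spp1 on 52, Cldn4, Cldn7 and Cftr on 9 to 12 and Krt7 on 0. Of 9 lymphocyte markers, Cd3g lay above it on 18 arrays, Cd3e, Ms4a1, Nkg7 and Gzmb on 1 to 4 and the other 4 (Cd3d, Cd2, Cd8a and Cd79b) on 0. Myh1 and Cela1, listed as genes of muscle and pancreas, also lay above that median on all 57 arrays. The median signal of an array was 14.99 to 17.79 in control day 4, 15.67 to 16.41 in control day 8, 15.48 to 16.33 in control day 15 and 15.88 to 17.78 in control day 24. At 80 mg/kg it was 16.83 to 18.69, 17.60 to 19.51, 16.84 to 19.23 and 18.90 to 21.12 on the 4 days. The first array of the 80 mg/kg day 24 group stood apart, with a summed hepatocyte marker signal of 35701 against 47251 to 59279 on the other 4.

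At 80 mg/kg the members did not move as a block. Otc and Slc25a13 fell to less than 40% of control by day 15, Arg1 to 54.2%, and Nags, Cps1 and Ass1 to between 76.4% and 79.8%, while Asl rose to 238%. On day 4, 1 member rose (Asl) and 2 fell (Otc and Slc25a13) with a Benjamini-Hochberg adjusted p under 0.05 in limma. Over all genes on that day 18.3% rose and 9.19% fell. On day 8, 1 member rose and 6 fell, against 34.2% and 16.6% of all genes, and on day 15 the same counts of 1 and 6 stood against 38.8% and 20.5%. The median change of the 8 members was 0.04, -0.40 and -0.38 on the log2 scale on days 4, 8 and 15, beside 0.08, 0.15 and 0.16 over all genes tested. On day 24 no member passed the test in limma, 1 of 8 had an unadjusted p under 0.05 (Nags), and 10.2% of all genes were called.

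**Figure D1:**
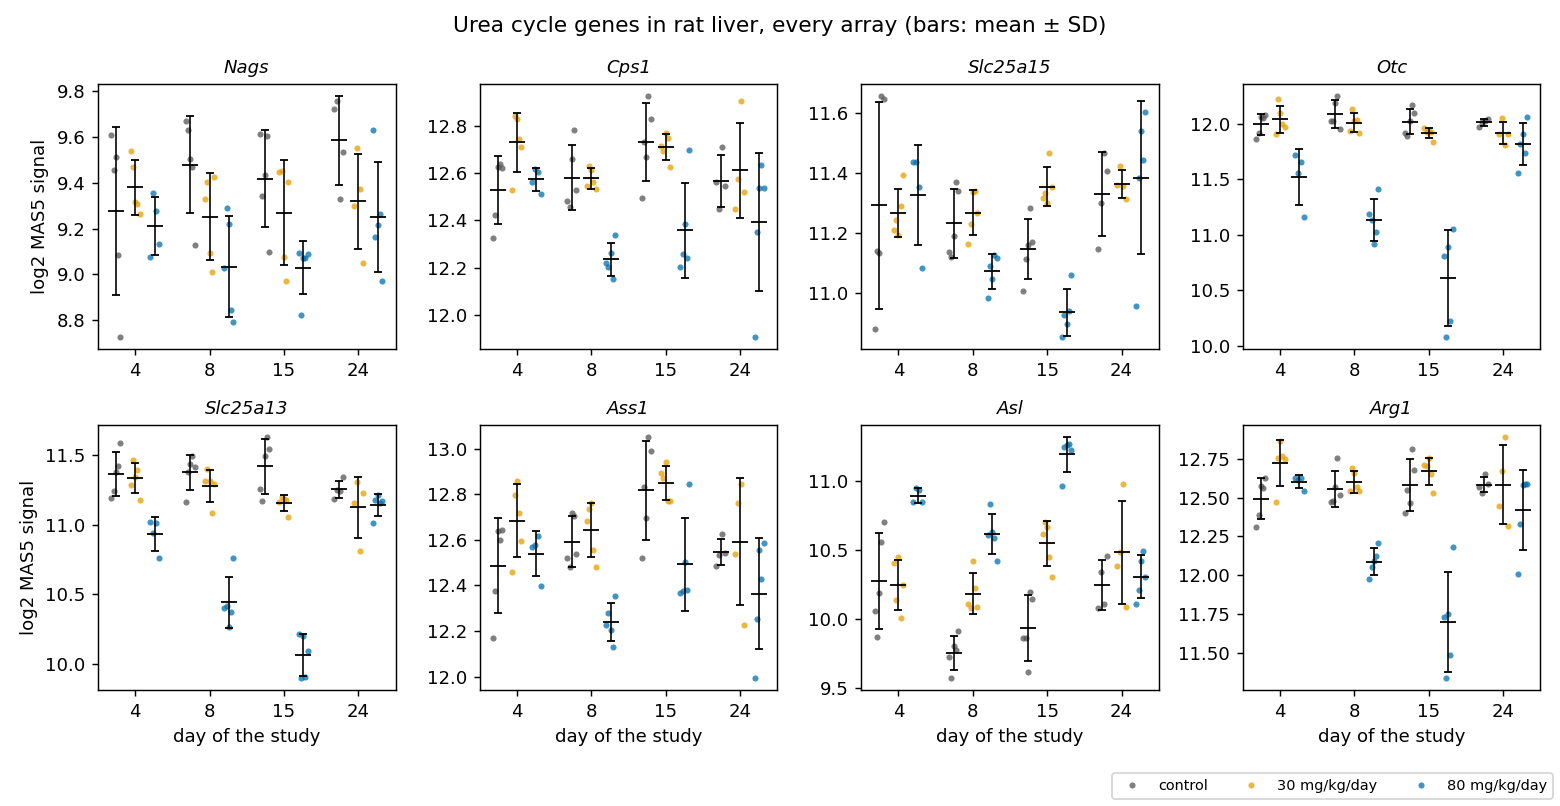
Log2 MAS5 signal of the 8 members (1 panel each, with its own vertical axis) by day of the study, with 1 point per array and bars for the mean ± SD of each group of 4 or 5 arrays, coloured by dose. Otc, Slc25a13 and Arg1 at 80 mg/kg lie below all control points on days 8 and 15, Asl at 80 mg/kg lies above them on days 4, 8 and 15, and the groups overlap on day 24.

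Nags makes N-acetylglutamate, the obligate activator of Cps1. Its signals were 782, 649, 692, 778 and 548 in control day 15 and 546, 452, 538, 538 and 545 in 80 mg/kg day 15, so that every treated array lay below every control array. The log2 change was -0.39 (SE 0.13, adjusted p = 0.00972), after -0.45 (SE 0.13, adjusted p = 0.00405) on day 8 and -0.07 (SE 0.14, adjusted p = 0.765) on day 4. Control day 4 was wide, with 781, 703, 730.1, 544 and 424, and covered all 4 arrays of 80 mg/kg day 4. On day 24 Nags was at -0.34 (adjusted p = 0.11), with 4 of 5 treated arrays below every control array. That value passed the test without 80 mg/kg day 24 replicate 1, at -0.43 with an adjusted p of 0.0475.

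Cps1 makes carbamoyl phosphate from ammonia and bicarbonate. Signals in control day 15 were 5769, 6811, 6511, 7795 and 7281, and in 80 mg/kg day 15 they were 4715, 4897, 5346, 4845 and 6651. All treated arrays but replicate 5 lay below every control array, with a log2 change of -0.37 (SE 0.09, adjusted p = 0.000677). On day 8 the signals were 5714, 5628, 6464, 7045 and 5901 in controls and 4773, 4714, 4914, 4552 and 5179.8 at 80 mg/kg, with no overlap and a change of -0.35 (SE 0.09, adjusted p = 0.00205). On day 4 the change was 0.05 (adjusted p = 0.781) and the ranges overlapped. A second Cps1 probe set gave 0.05, -0.29 and -0.27 on days 4, 8 and 15, the last 2 with adjusted p of 0.0047 and 0.0061. Both falls of the first probe set depended on the scaling of the arrays, as described for the bright genes further on.

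Slc25a15 exchanges ornithine for citrulline across the inner mitochondrial membrane. With the signals as deposited it did not pass the test against control on any day at 80 mg/kg. On day 15 its signals were 2058, 2218, 2288, 2494 and 2303 in controls and 1851, 1947, 1907, 1968 and 2137 at 80 mg/kg, a change of -0.21 (SE 0.10, adjusted p = 0.0563), with 4 of 5 treated arrays below every control array. The call turned on the setting: the adjusted p became 0.0367 without control day 15 replicate 1, 0.0396 without 80 mg/kg day 15 replicate 5, 0.0327 with array weights and 0.0167 with only the compared groups. A common array median put it at -0.35 on day 15 (adjusted p = 0.011) and -0.38 on day 8 (adjusted p = 0.00687), and quantile normalization at 0.09 and 0.11, not called. The other days gave 0.04, -0.16 and 0.05. Of its 6 probe sets 1 did not pass the filter, and none of the other 5 was called at 80 mg/kg. The 5 did not run together in the controls: 1 of them was at -0.91 (SE 0.13, adjusted p = 6.35e-07) in control day 24 against control day 4, where the one used was at 0.04.

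Otc joins carbamoyl phosphate to ornithine, and its signal was lower than in controls on all 3 sampling days under dosing. On day 4 the signals were 3716, 3868, 4283, 4241 and 4314 in controls and 3376, 3021, 3229.6 and 2288 at 80 mg/kg. On day 8 they were 4175, 4156, 4673, 4877 and 3968 in controls and 2333, 2245, 1934, 2084 and 2724 at 80 mg/kg. On day 15 they were 3873, 3802, 4169, 4601 and 4369 in controls and 1798, 1083, 1900.3, 1194 and 2129 at 80 mg/kg. On none of these 3 days did a treated array reach the lowest control array. The log2 changes were -0.47 (SE 0.12, adjusted p = 0.00236), -0.95 (SE 0.11, adjusted p = 8.71e-10) and -1.41 (SE 0.11, adjusted p = 2.39e-15), or 72.3%, 51.6% and 37.7% of the control geometric mean, the last with a 95% interval of 32.2 to 44.1. On day 24 the signals were 4007, 4127, 4166 and 4211 in controls and 3016, 3612, 3833, 3419 and 4277 at 80 mg/kg. One treated array then lay above all controls and the other 4 below them, and the change of -0.19 (SE 0.12, adjusted p = 0.304) did not pass the test.

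Slc25a13 is citrin, the carrier that brings aspartate out of the mitochondrion for Ass1. Signals were 2339, 2426, 2671, 2745 and 3079 in control day 4 and 2079.6, 1963, 2071 and 1738 at 80 mg/kg. On day 15 they were 2448, 2307, 2882, 3181 and 2993 in controls and 1186, 955, 1178, 960.4 and 1094 at 80 mg/kg. The groups did not overlap on either day, nor on day 8. The log2 changes were -0.43 (SE 0.09, adjusted p = 0.000366), -0.94 (SE 0.09, adjusted p = 1.56e-12) and -1.36 (SE 0.09, adjusted p = 1.92e-18), so that 39% of the control level was left on day 15 (95% interval 34.5 to 44.1). A second probe set of the gene gave -0.53, -1.03 and -1.52 on these days, all called. On day 24 the signals at 80 mg/kg were 2063, 2319, 2379, 2280.00 and 2303, against 2334, 2433, 2420.2 and 2595 in controls, and the change was -0.11 (SE 0.09, adjusted p = 0.485).

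The courses of Otc and Slc25a13 over the 12 group means correlated with r = 0.99, the closest pair among the members. These points share the arrays on which both were read, and most of their spread comes from the 80 mg/kg groups. Their upstream sequences are shown because both fell together, with Asl as the member that rose and Cps1 as the only one of the 4 genes with a match to a nuclear receptor motif. Promoter windows came from RefSeq (assembly GRCr8), which held 7 of the 8 members, without Arg1; the windows of Nags, Slc25a15 and Ass1 are not printed. The stretches lie upstream of the annotated start on the strand of the gene, at chrX:15202474-15202723 (minus strand) for Otc, chr4:35328404-35328610 (minus) for Slc25a13, chr12:32295658-32295778 (plus) for Asl and chr9:76063613-76063862 (plus) for Cps1, each outside the annotated gene, and capitals mark motif matches.
Otc: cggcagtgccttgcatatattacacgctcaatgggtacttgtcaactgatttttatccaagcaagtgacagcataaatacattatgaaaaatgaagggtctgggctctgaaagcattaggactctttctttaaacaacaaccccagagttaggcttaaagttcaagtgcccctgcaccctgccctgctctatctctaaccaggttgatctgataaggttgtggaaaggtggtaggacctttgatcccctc
Slc25a13: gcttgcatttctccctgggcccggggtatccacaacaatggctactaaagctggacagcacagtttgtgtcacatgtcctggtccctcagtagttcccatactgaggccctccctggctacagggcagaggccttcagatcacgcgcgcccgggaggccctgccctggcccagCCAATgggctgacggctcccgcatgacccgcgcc
Asl: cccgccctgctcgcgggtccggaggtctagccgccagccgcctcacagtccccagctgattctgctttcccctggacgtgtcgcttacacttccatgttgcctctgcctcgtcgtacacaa
Cps1: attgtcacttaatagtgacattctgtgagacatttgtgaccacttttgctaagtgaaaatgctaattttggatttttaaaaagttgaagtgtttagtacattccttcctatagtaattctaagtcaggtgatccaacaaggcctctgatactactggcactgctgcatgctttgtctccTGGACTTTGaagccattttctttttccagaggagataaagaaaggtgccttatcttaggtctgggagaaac
The 250 bases before the start were searched on both strands for 7 motifs. These were the cyclic AMP element TGACGTCA (held by 1.59% of 33469 promoters of this length), the CCAAT box CCAAT (34%), the C/EBP-ATF element TGATGNAA (3.4%), an HNF4 core CAAAGTCCA (0.338%), TATAAA (12.9%), the C/EBP motif TTGCNNCAA (1.75%) and the antioxidant element TGACNNNGC (10.1%). Slc25a13 held CCAAT at 77 to 73 bases before its start, and Cps1 held the HNF4 core, on the opposite strand, at 71 to 63 bases before its start. None of the 7 motifs was found in the Otc or Asl stretch. These matches describe letters only.

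Ass1 joins citrulline and aspartate, and Asl follows it in the cytosol. Ass1 signals in control day 15 were 5873, 7296, 6630.1, 8504 and 8144, and in 80 mg/kg day 15 they were 5283, 5313, 5797, 5326 and 7359. Of the treated arrays 4 lay below every control array and replicate 5 lay among the controls. The log2 changes were 0.05 (SE 0.11, adjusted p = 0.77), -0.35 (SE 0.11, adjusted p = 0.00438) and -0.33 (SE 0.11, adjusted p = 0.00709) on days 4, 8 and 15. As for Cps1, both falls depended on the scaling, and that of day 15 had an adjusted p of 0.0506 with the actin 3'/5' ratio of each array as a covariate.

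Asl, which releases arginine and fumarate, was the only member that rose against control. On day 4 the signals were 1067, 936, 1164, 1507 and 1666 in controls and 1843, 1972, 1951 and 1838 at 80 mg/kg. On day 8 they were 846, 763, 895, 877 and 963 in controls and 1560.4, 1819, 1583, 1538 and 1369.9 at 80 mg/kg. On day 15 they were 934, 932, 784, 1176 and 1132 in controls and 1992, 2424, 2449.7, 2456 and 2384 at 80 mg/kg. Every treated array lay above every control array on these 3 days, and the treated arrays of day 15 were also above those of the other days. The changes were 0.62 (SE 0.13, adjusted p = 0.000317), 0.86 (SE 0.12, adjusted p = 1.17e-07) and 1.25 (SE 0.12, adjusted p = 2.28e-12), the last equal to 238% of control (95% interval 200.04 to 283). On day 24 the signals were 1082, 1297, 1106 and 1404 in controls and 1104, 1184, 1366, 1439 and 1263 at 80 mg/kg. The ranges overlapped again and the change was 0.06 (SE 0.13, adjusted p = 0.815).

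The Asl probe set that the rule selects carries a design accession that the RefSeq table assigns to Hnrnpab, a gene for an RNA-binding protein, while the array's annotation names Asl alone. A second probe set, whose accession is that of Asl itself, was therefore read beside it. Its signals on day 15 were 832, 831, 756, 1007 and 1143 in controls, 1464, 1334, 1222, 1197 and 1103 at 30 mg/kg and 1604, 1762, 1805, 1763 and 1988 at 80 mg/kg. The 80 mg/kg arrays again lay above all controls, with changes of 0.38 (SE 0.12, adjusted p = 0.0184), 0.63 (SE 0.12, adjusted p = 1.15e-05) and 0.98 (SE 0.12, adjusted p = 3.77e-10) on days 4, 8 and 15. On day 24 the second probe set was at -0.12 (adjusted p = 0.579). The Hnrnpab probe set also rose at 80 mg/kg, by 0.39, 0.52 and 0.78, but at 30 mg/kg day 15 it was at 0.03 (adjusted p = 0.898), where both Asl probe sets were called. After group means were removed, the 2 Asl probe sets correlated with r = 0.87 over 57 arrays, and their r with the Hnrnpab probe set was 0.08 and 0.07.

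**Figure D2:**
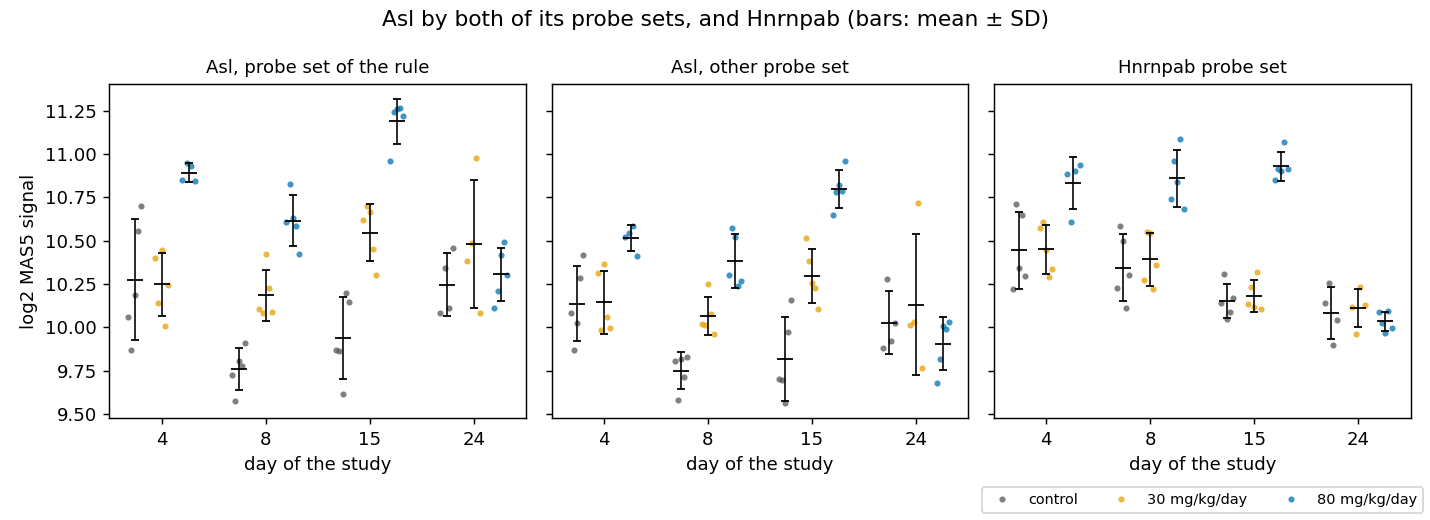
Log2 MAS5 signal on a shared axis by day, with 1 point per array and bars for the mean ± SD, for the Asl probe set used, the other Asl probe set and the Hnrnpab probe set. All 3 are high at 80 mg/kg on days 4, 8 and 15, and only the 2 Asl panels show the 30 mg/kg arrays of day 15 above the control mean by 0.61 and 0.48.

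Arg1, the last step, passed the test on days 8 and 15 but not on day 4. On day 4 its signals were 5091, 5372, 6101, 6062 and 6328 in controls and 6336, 6281, 6329 and 5958 at 80 mg/kg, a change of 0.11 (SE 0.11, adjusted p = 0.508). On day 8 they were 5689, 5708, 6066, 6910.4 and 5875 in controls and 4018, 4242, 4359, 4457 and 4723 at 80 mg/kg. On day 15 they were 5403, 6007, 5647, 7193 and 6566 in controls and 3404, 2587, 3439, 2867 and 4643 at 80 mg/kg. The groups overlapped on day 4 and were apart on days 8 and 15, with changes of -0.47 (SE 0.10, adjusted p = 0.000186) and -0.88 (SE 0.10, adjusted p = 3.35e-10). The day 8 call depended on the scaling and was lost under quantile normalization, at -0.11 (adjusted p = 0.0704). Replicate 5 of 80 mg/kg day 15 had the highest Arg1, Otc, Cps1 and Ass1 signals of its group, and its summed hepatocyte marker signal was 64886 against 45634 to 53547 on the other 4 arrays. Its part in the results was not tested beyond leaving it out, which kept every call against control on day 15 and added Slc25a15.

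**Figure D3:**
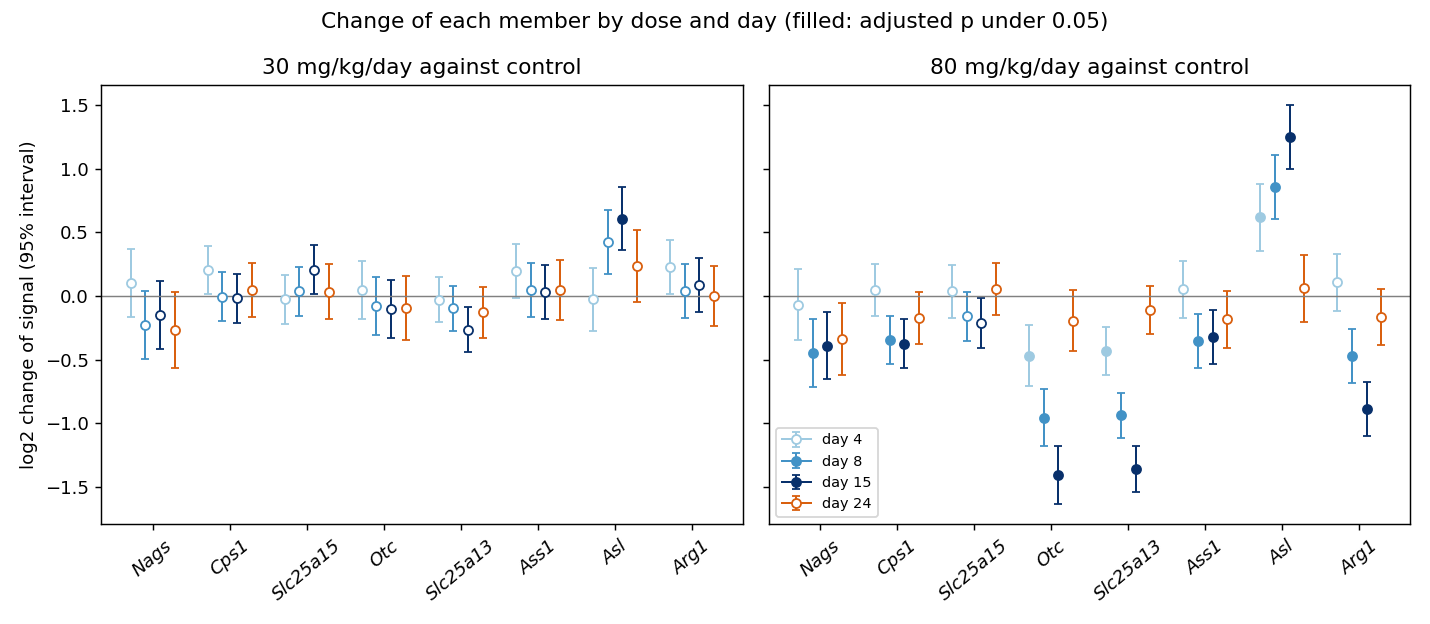
Log2 change against the control of the same day (point) with its 95% interval (bar) for each member and day at 30 mg/kg (left) and 80 mg/kg (right), filled where the adjusted p was under 0.05. At 80 mg/kg 7 members are filled on day 15 and none on day 24, and at 30 mg/kg Asl on day 15 is the only filled point.

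Otc, Slc25a13, Asl and Arg1 came back from their day 15 values by day 24. The effect of 80 mg/kg on day 24 minus that on day 15 was 1.21 (SE 0.16, adjusted p = 3.6e-08) for Otc, 1.25 (SE 0.13, adjusted p = 4.58e-11) for Slc25a13, -1.19 (SE 0.18, adjusted p = 4.33e-07) for Asl and 0.72 (SE 0.15, adjusted p = 0.000127) for Arg1. For this difference 4 of 8 members and 42.7% of all genes passed the test. Between day 4 and day 8 the effect moved down for Slc25a13, with a difference of -0.50 (SE 0.13, adjusted p = 0.0142), and for Arg1, which had been at 0.11 on day 4, with -0.58 (SE 0.15, adjusted p = 0.0175), among 6.69% of all genes. Both calls were lost with the actin covariate (-0.42, adjusted p = 0.0682, and -0.51, adjusted p = 0.0694), and that of Arg1 under quantile normalization too (-0.22, adjusted p = 0.0719). Between day 8 and day 15 it moved further down for Slc25a13 alone among the members, with -0.42 (SE 0.12, adjusted p = 0.0379), with 4.98% of all genes called. This last call was lost without control day 8 replicate 1 or 2, control day 15 replicate 3, 4 or 5, 80 mg/kg day 8 replicate 5, or 80 mg/kg day 15 replicate 2 or 4, with values from -0.42 to -0.34. It was also lost with a common array median (-0.34, adjusted p = 0.213), with no filter (adjusted p = 0.0502) and with only the compared groups (adjusted p = 0.0995). Under quantile normalization Otc and Arg1 passed as well, at -0.44 and -0.49. Without 80 mg/kg day 15 replicate 5, Otc at -0.56 and Arg1 at -0.54 passed as well. These differences share arrays with the comparisons above them.

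At 30 mg/kg Asl was the only member called on any day. Its signals on day 15 were 1571, 1661, 1622, 1398 and 1265, above every control array and below every 80 mg/kg array of that day, with a change of 0.61 (SE 0.12, adjusted p = 0.00193). It was the 1 member called, among 4.6% of all genes. On day 8 the Asl signals were 1103, 1083, 1372, 1197 and 1088, all above the controls, with a change of 0.43 (SE 0.12, adjusted p = 0.118) that did not pass. On days 4, 8 and 24 no member passed in limma (2, 1 and 0 of 8 at an unadjusted p under 0.05), among 0.783%, 0.233% and 0.0932% of all genes. Slc25a13 on day 15 was at -0.26 (SE 0.09, adjusted p = 0.0689) with signals of 2295, 2352, 2332, 2322 and 2126. It passed without control day 15 replicate 1 or 2, at -0.30 and -0.33, and under quantile normalization at -0.24 (adjusted p = 0.037). For Slc25a15, 2 of its other probe sets were called higher on that day, at 0.45 and 0.51 (adjusted p = 0.0447 and 0.00992), while the probe set used was at 0.21 (SE 0.10, adjusted p = 0.229). The effect of 30 mg/kg did not differ between day 15 and day 4, or between day 24 and day 15, for any member past the test (0 of 8 each, 1 and 0 of 8 at an unadjusted p under 0.05, with 0.0653% and 1.09% of all genes called).

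Against 30 mg/kg, 80 mg/kg put Otc at -0.51 (SE 0.12, adjusted p = 0.00162) and Slc25a13 at -0.40 (SE 0.09, adjusted p = 0.00158) on day 4, and Asl at 0.64 (SE 0.13, adjusted p = 0.000378). These were the 3 members called, among 20.1% of all genes. On day 8, 1 member was higher (Asl, 0.43) and 5 were lower, against 31.6% and 14.6% of all genes. The Asl call was lost with a common array median (0.23, adjusted p = 0.236). Under quantile normalization 3 were lower, Cps1 was called higher at 0.09, and Ass1 at 0.02 was not called. On day 15, 1 was higher (Asl, 0.64) and 6 were lower, against 37% and 18.3%. The lower ones included Slc25a15 on day 15, at -0.42 (SE 0.10, adjusted p = 0.00024), where the mean at 30 mg/kg lay above and that at 80 mg/kg below the control mean. Under quantile normalization this value was -0.09 (adjusted p = 0.356), Cps1 and Ass1 were at 0.02 and 0.04, and 3 members were lower. On day 24 none of the 8 passed in limma (2 at an unadjusted p under 0.05), among 6.77% of all genes. Asl was the member with called differences between each pair of the 3 doses on day 15.

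Between control groups a single member was called. Against control day 4, Asl was lower in control day 8, at -0.52 (SE 0.12, adjusted p = 0.0131), the 1 member called among 3.38% of all genes. The call was lost without control day 4 replicate 4 (-0.45, adjusted p = 0.0547) or replicate 5 (-0.41, adjusted p = 0.0725), which held the 2 highest Asl signals of that group. It was also lost with a common array median (-0.48, adjusted p = 0.0733) and with only the compared groups (adjusted p = 0.109). No member passed in control day 15 (3 of 8 at an unadjusted p under 0.05) or control day 24 (1 of 8), in limma, among 3.51% and 20.5% of all genes. Ordered by mean, neighbouring groups overlapped in their ranges in 11 of 11 pairs for Nags, Cps1, Slc25a15, Otc, Ass1 and Arg1, and in 9 of 11 for Slc25a13 and Asl. The separate neighbours were 80 mg/kg day 4 over day 8 and day 8 over day 15 for Slc25a13, and 80 mg/kg day 15 over day 4 and day 4 over day 8 for Asl.

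Within an array, the log2 signal of Asl was also set against that of each other member, as a description without a test. Asl was singled out with its opposite course already known, so its separation from the other members is no independent support. The level of such a difference depends on the probes, so only its shift carries meaning. Asl minus Otc was -2.08 ± 0.19 (SD, n = 5) in control day 15, -1.37 ± 0.13 (n = 5) at 30 mg/kg and 0.58 ± 0.49 (n = 5) at 80 mg/kg. The shift of 2.66 at 80 mg/kg followed 1.09 on day 4 and 1.81 on day 8, and 0.25 remained on day 24. Asl minus Ass1, the enzyme just before it, shifted by 0.56, 1.21 and 1.58 on days 4, 8 and 15 and by 0.24 on day 24. With the other Asl probe set these shifts were 0.33, 0.99, 1.30 and 0.06. On days 8 and 15 all 80 mg/kg arrays lay above all controls for each of the 7 other members. On day 4 they did for all but Nags, where 0 of 4 arrays lay above every control at a shift of 0.69. With the other Asl probe set, Asl minus Slc25a15 had 2 of 4 arrays above every control on day 4 and Asl minus Nags again 0 of 4.

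**Figure D4:**
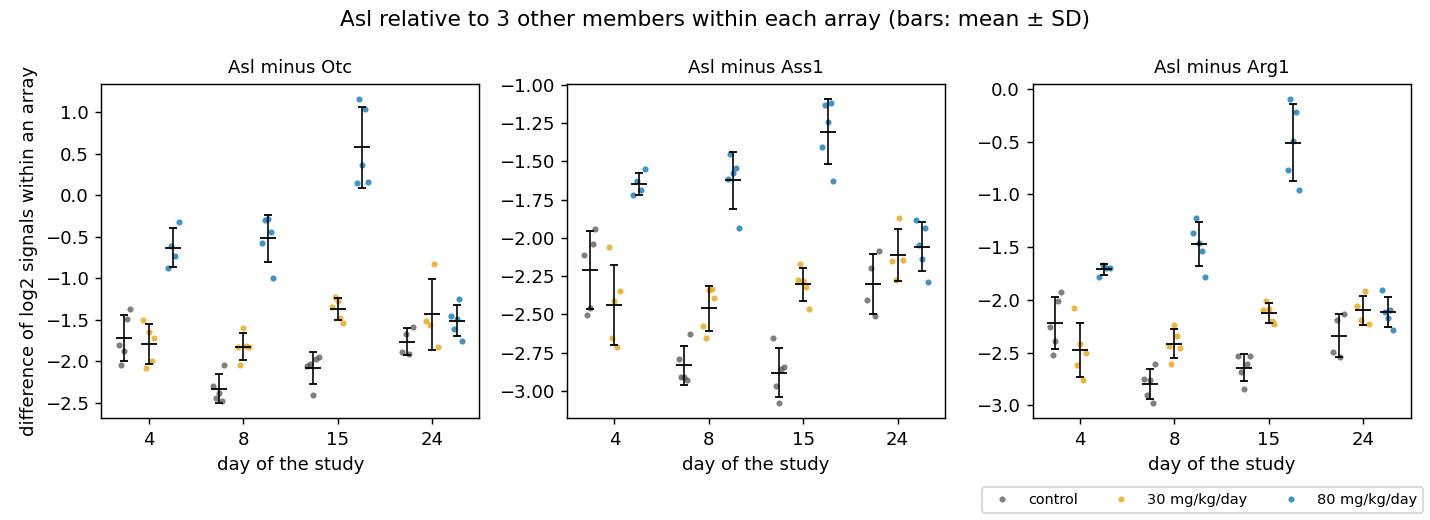
Difference of log2 signals within each array, Asl minus Otc, Asl minus Ass1 and Asl minus Arg1 (each with its own axis), by day and dose, with 1 point per array and bars for the mean ± SD. The 80 mg/kg arrays lie above all controls on days 4, 8 and 15 in all 3 panels and are back among or near them on day 24.

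Most of the brightest probe sets were lower at 80 mg/kg on days 8 and 15, by an amount that the scaling of the arrays moved. Cps1, Ass1 and Arg1 had a mean log2 signal above 12, and 114 other genes did too, a group formed after the values were seen. Of these, 8 rose and 8 fell on day 4 (median change 0.01), 3 rose and 99 fell on day 8 (median -0.45), 5 rose and 100 fell on day 15 (median -0.60), and 3 fell on day 24 (median -0.17). Under quantile normalization the medians of the group were -0.03, -0.12, -0.27 and -0.0044 on the 4 days. As deposited, Cps1 at -0.37 and Ass1 at -0.33 on day 15 lay above the deposited median of -0.60, and Arg1 at -0.88 lay below it. Quantile normalization, which gives all arrays the same distribution, put Cps1 at 0.07 on day 8 and 0.03 on day 15, and Ass1 at 0.04 and 0.09 (adjusted p = 0.0729, 0.451, 0.531 and 0.114). Otc at -1.14, Slc25a13 at -1.10, Arg1 at -0.60, Nags at -0.36 and Asl at 1.49 on day 15 remained called. Arg1 on day 8 was at -0.11 (adjusted p = 0.0704) under that scaling. It moved the all-gene median from 0.15 to 0.03 on day 8 and from 0.16 to 0.04 on day 15, and turned 3664 genes that rose and 1782 that fell on day 8 into 2700.0 and 2181, and 4160.0 and 2194 on day 15 into 3311 and 2673.

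Ranks within an array, which a shift or quantile scaling of arrays does not alter, were read for the same probe sets among all 31099. The median rank of Cps1 on day 15 was 66 in controls and 58 at 80 mg/kg, and that of Ass1 was 45 and 38. Otc went from 193 to 536, Slc25a13 from 380 to 975, Arg1 from 85 to 225 and Nags from 1610.0 to 2006. Asl went from 1228 to 366, and its other probe set from 1365 to 521. Slc25a15 was at 512 in controls and 468 at 80 mg/kg. Shifting every array to a common median instead, which moved the all-gene median on day 24 to -0.21 from 0.04, called 6 members lower on day 24, from -0.59 for Nags to -0.36 for Slc25a13. With it 264 genes rose and 3362 fell on that day, against 767 and 330.0 as deposited.

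**Figure D5:**
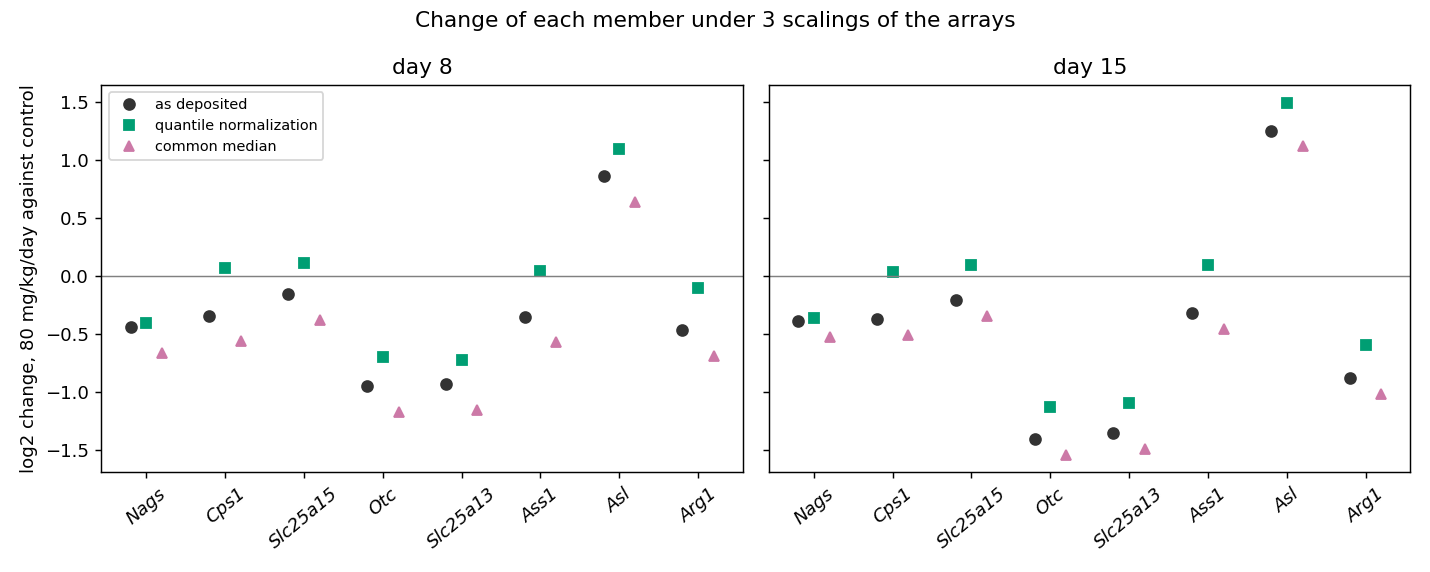
Log2 change of each member at 80 mg/kg against control on day 8 (left) and day 15 (right) with the signals as deposited, after quantile normalization and after a shift to a common median. Cps1, Ass1 and Slc25a15 lie below 0 as deposited and above 0 after quantile normalization, while Otc, Slc25a13 and Asl keep their side under all 3.

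Genes next to the cycle were read from 5 lists. Among 13 measured genes that handle ammonia and glutamate, 1 rose and 7 fell on day 15 at 80 mg/kg (1 and 3 on day 4, 1 and 7 on day 8, 0 and 1 on day 24), with a median of -0.32 beside 0.16 for all genes. On day 15, 38.8% of all genes rose and 20.5% fell, which is the background of this and the following 4 lists. Asns, which makes asparagine, rose by 3.85 (SE 0.32, adjusted p = 1.13e-14). Gpt, the alanine aminotransferase, was at -1.45 (SE 0.23, adjusted p = 2.83e-07), Gls2, the liver glutaminase, at -0.68 (SE 0.15, adjusted p = 0.000152), and Slc38a3, a glutamine transporter, at -0.66 (SE 0.09, adjusted p = 9.79e-09). Smaller falls were those of the aminotransferase Got2 at -0.36, glutamine synthetase Glul at -0.32 and glutamate dehydrogenase Glud1 at -0.19. Under quantile normalization these 3 were at -0.07, -0.09 and 0.02, none called, and 4 of the list fell. Got1 was at -0.28 (SE 0.20, adjusted p = 0.237).

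Of 13 measured genes listed for arginine and ornithine use and steps close to it, 6 rose and 2 fell on day 15 (median 0.22). These shares were near those of all genes on that day. On day 4, 5 rose and 2 fell, beside 18.3% and 9.19% of all genes. The counts were again 5 and 2 on day 8, beside 34.2% and 16.6%, and 1 and 0 on day 24. Slc7a1, a cationic amino acid transporter, rose by 4.08 (SE 0.28, adjusted p = 1.09e-17), and Aldh18a1, which makes the precursor of ornithine and proline, by 2.79 (SE 0.19, adjusted p = 4.33e-18). The spermidine synthase Srm rose by 1.55 (SE 0.10, adjusted p = 2.75e-18), and Odc1, which turns ornithine into putrescine and is named after its values were seen, by 1.54 (SE 0.12, adjusted p = 6.52e-16). Oat, which removes ornithine, was at -1.92 (SE 0.19, adjusted p = 4.14e-12), and Gamt of creatine synthesis was at -0.80 (SE 0.08, adjusted p = 1.22e-12). At 30 mg/kg on day 15, where Asl rose, Slc7a1 (1.35), Aldh18a1 (1.01) and Odc1 (0.45) were the 3 of the list that rose. Of all 10725 genes tested, 291 rose in that comparison. Asns rose there by 1.55.

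All 5 genes of the pyrimidine list rose on day 15, with a median of 1.30, also under quantile normalization and with a common array median. Not every gene of this list lies on the route from carbamoyl phosphate, and Uck2, a nucleoside kinase, does not. On day 8 all 5 rose as deposited and 4 under either other scaling, and on day 4 the counts were 4 as deposited, 3 under quantile normalization and 2 with a common median. Cad, which has a carbamoyl phosphate synthetase of its own, rose by 0.90 (SE 0.11, adjusted p = 3.68e-10), Umps by 1.30 (SE 0.08, adjusted p = 1.45e-18), Uck2 by 1.40 and Ctps1 by 1.82 (SE 0.16, adjusted p = 6.5e-14). On day 24 none of the 5 passed as deposited, while 1 fell under quantile normalization and 3 fell with a common median. Among 9 measured cofactor, carrier and fumarate genes, 2 rose and 2 fell on day 15 (median 0.11), beside 38.8% and 20.5% of all genes. Under quantile normalization 3 of the 9 rose and 1 fell. Slc25a12, the other aspartate/glutamate carrier, rose by 0.65 (SE 0.13, adjusted p = 3.57e-05) while Slc25a13 fell, and the desuccinylase Sirt5 rose by 0.55 (SE 0.07, adjusted p = 3.72e-09). Car5a, the mitochondrial carbonic anhydrase that supplies bicarbonate, was at -1.02 (SE 0.25, adjusted p = 0.000414), and Mdh1 was at -0.39 (SE 0.08, adjusted p = 3.71e-05), or -0.13 and not called under quantile normalization.

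Of 10 measured regulators of these genes, 1 rose and 6 fell on day 15 (0 and 4 on day 4, 1 and 5 on day 8, 0 and 0 on day 24; median -0.61), beside 38.8% and 20.5% of all genes on day 15. The glucocorticoid receptor Nr3c1 was at -1.17 (SE 0.13, adjusted p = 2.38e-11), the glucagon receptor Gcgr at -0.82 (SE 0.11, adjusted p = 1.82e-08) and Cebpa at -0.80 (SE 0.16, adjusted p = 2.21e-05). Ppargc1a, a coactivator, rose by 0.83 (SE 0.23, adjusted p = 0.00135). Hnf4a, named after its values were seen, was at -0.57 (SE 0.08, adjusted p = 1.93e-08), and at -0.25 under quantile normalization. On day 15 the 4 lower regulators named here kept their direction and call under both other scalings.

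Markers of cell types moved on the same arrays. Beside them, 38.8% of all genes rose and 20.5% fell on day 15. Of the 114 genes of mean log2 signal above 12 that are not members, 5 rose and 100 fell. The summed signal of 9 hepatocyte markers was 58795 to 78324 in control day 15 and 45634 to 64886 at 80 mg/kg, and 7 of the 9 fell; under quantile normalization 3 fell and 2 rose. Of 7 periportal hepatocyte markers, 1 rose and 5 fell on day 15 as deposited and under quantile normalization, and their sum was 10754 to 12255 in controls and 6886 to 8434 at 80 mg/kg. Of 9 measured pericentral markers 4 fell on day 15 (3 fell and 1 rose under quantile normalization), with Glul and Oat among them. The 10 pericentral markers on the array summed to 18677 to 24554 in control day 15 and 12718 to 18107 at 80 mg/kg. On days 4 and 8, 5 and 7 of the 9 fell, against 2 and 5 of the 7 periportal markers. Under quantile normalization these counts were 5 and 4, against 2 and 4. Over all genes 9.19% and 16.6% fell on these days as deposited. The 7 biliary markers on the array summed to 220.2 to 284 in controls and 956 to 1338 at 80 mg/kg. All 6 that passed the filter on low values rose, and Krt7, at 9.32 or less on all arrays, did not pass it. Cldn4, Cldn7 and Cftr lay above the level of the filter on only 12, 10 and 9 arrays. For such markers passing may itself depend on a rise in some groups, so the count of 6 of 6 may be partly set by the filter. The 10 macrophage markers summed to 2870 to 3434 and 3791 to 4795, and 6 of 9 measured rose. On day 24 the biliary sum was 88.4 to 155.9 in controls and 235.5 to 284 at 80 mg/kg. The part of these cell types in the changes of the members was not tested, and in whole liver fewer hepatocytes and less RNA per hepatocyte cannot be told apart.

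The genes whose 12 group means followed each member most closely, among all genes tested, were read by Pearson's r as a description. For Otc they were Dao (r = 0.994), Lipc and Rida, and for Slc25a13 they were Lipc (r = 0.995), Dao and C8a. For Arg1 they were Slc27a5 (r = 0.975), C4bpb and Car3. For Cps1 they were Mgst1 (r = 0.993), Rup2 and Apoh, for Ass1 Itm2b (r = 0.972), Ahsg and Serpinf1. For Nags they were Rhobtb1 (r = 0.930), Ndufa2 and Slc22a25, and for Slc25a15 Rasgef1b (r = 0.95), Irs1 and Ube2b. For Asl they were Pnpla2 (r = 0.965), a triglyceride lipase, Rassf1 and Cstf1, which changed by 1.27, 1.02 and 0.47 at 80 mg/kg on day 15. Among the members, Asl correlated with Otc at -0.83 and with Slc25a13 at -0.84, and Cps1 with Ass1 at 0.92.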

How the data were processed

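RNA from rat liver was read on 57 Affymetrix arrays of 1 colour. The deposited values are signal intensity values on a linear scale, made by the authors with MAS5, per the submitters' processing notes, with the trimmed mean of each array at 99.992. No read alignment or genome build applies. Signals were taken to log2. Low probe sets were removed, keeping those above 17.09, the median over all arrays and probe sets, on 4 arrays or more. Each gene was read from its probe set of highest mean log2 signal among those of 1 symbol, which left 10725 genes. A model of 12 group means was fitted to all 57 arrays with limma 3.58.1 in R 4.3.3 (lmFit, contrasts, eBayes with trend), and a call is a p-value under 0.05 after Benjamini-Hochberg adjustment across all of these genes. Figures were drawn with matplotlib.

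Named were the 8 members, for each list up to 3 called genes of largest change in the direction of its median, up to 2 against it and genes whose enzymes use a metabolite of the cycle directly, and the 3 genes closest to each member by Pearson's r over 12 group means. The members, lists and tests were chosen with earlier results of these data known. Among the listed genes, Rhbg, Pycr1, Slc25a2 and Fh had no probe set of that 1 symbol, and Arg2, Nos1 and Slc25a18 did not pass the filter. The number of arrays, 4 or 5 in a group, limits the precision. The labels number the arrays of a group as biological replicates and give a group size of 6. They do not state outright that each array is a separate animal, so p-values measure the spread between these samples. Alternatives were quantile normalization, a common array median, other filters, offsets and probe set rules, array weights, an actin covariate, a replicate block, fits to the compared groups alone and leaving out each array. The steps were tested on simulated data.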

Additional observations from a re-analysis of the deposited data

Results flagged for a closer look

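In 6 of 120 groups of 4 or 5 arrays, the highest or lowest array lay far from the rest, and chance gives about 1 such group in 20. These were Nags in 80 mg/kg day 15 replicate 2 at 452, Slc25a13 in 30 mg/kg day 15 replicate 5 at 2126, Ass1 in 80 mg/kg day 15 replicate 5 at 7359, Asl in 80 mg/kg day 15 replicate 1 at 1992, Arg1 in 80 mg/kg day 4 replicate 5 at 5958 and Hnrnpab in 80 mg/kg day 4 replicate 3 at 1562.5. The Ass1 value came from the array with the highest summed hepatocyte marker signal of its group, and the Asl value was still above every control array of day 15.

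The effect of 80 mg/kg differed between days, by the test of the difference itself in limma, for 4 members. From day 4 to day 8 the difference was -0.50 for Slc25a13 and -0.58 for Arg1, and from day 8 to day 15 it was -0.42 for Slc25a13. From day 15 to day 24, after dosing ended, it was 1.21 for Otc, 1.25 for Slc25a13, -1.19 for Asl and 0.72 for Arg1. Asl moved against the other 3 in that interval.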

How the results depend on the processing

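Of the values of single members recomputed under all alternatives, 4111 kept their side of the threshold without a called value turning, 22 lost a call, 48 gained one, 8 called values turned sign and 4 differences within arrays moved by over 1 SD. Among 4074 member values that neither gained, lost nor turned a call, 164 uncalled ones changed sign, Slc25a15 under quantile normalization among them. The 4074 include called values that stayed called. The 8 called values that turned were Cps1 and Ass1 under quantile normalization: against control 0.069 and 0.042 on day 8 and 0.029 and 0.093 on day 15, and against 30 mg/kg 0.090 and 0.021 on day 8 and 0.021 and 0.038 on day 15. Of these only Cps1 against 30 mg/kg on day 8 passed (adjusted p = 0.0201). Quantile normalization called 4 members on day 8 against control, 2 at 30 mg/kg on day 15, 4 on day 15 between doses, 1 for day 8 minus day 4 and 3 for day 15 minus day 8. A common median called 6 members on day 24 against control, 3 on day 24 between doses, 0 for day 15 minus day 8 and 0 for control day 8. At 30 mg/kg on day 15 the mean of probe sets and array weights each called 2. The actin covariate left 0 for day 8 minus day 4, and fits without a filter or to the compared groups alone left 0 for day 15 minus day 8, the latter also 0 for control day 8. For control day 15, array weights called 1, as did a fit without the 2 arrays of highest actin ratio, an alternative chosen after seeing the data. The cause of these shifts was not tested.

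With the replicate block, 1 member was called on day 24 at 80 mg/kg (Nags, -0.38, adjusted p = 0.0366), 1 in control day 15 (Ass1) and 1 in control day 24 (Nags). It also called Slc25a15 on day 15 at 80 mg/kg (adjusted p = 0.0242), on day 8 between doses (0.0455) and for day 24 minus day 15 (0.0375). Over all genes tested, deviations from the group means of same-numbered arrays of a day correlated at -0.08 to 0.09 (54 pairs, 0 over 0.1). For arrays of other numbers the range was -0.15 to 0.18 (217 pairs, 7 over 0.1). Because this check runs over all genes, it cannot decide whether the numbers matter for single members such as Nags.

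Leaving out 1 array at a time gave 0 to 1 called members on day 24 at 80 mg/kg, 1 to 2 at 30 mg/kg on day 15, 0 to 3 for day 15 minus day 8, and 0 to 1 in each control comparison. The shift of Asl minus Ass1 was 0.33, 0.99 and 1.30 with the other Asl probe set and 1.05 on day 8 under quantile normalization. Called at 80 mg/kg on day 15 under every scaling were Otc, Slc25a13, Asl, Arg1 and Nags. Cps1, Ass1 and Slc25a15 changed sign with the scaling, and 4 or 5 arrays a group limit what smaller changes could be called.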

Other observations

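Some genes next to the cycle differed on day 24, when no member was called and 10.2% of all genes were. As deposited, 1 of 13 ammonia and glutamate genes fell, which is not named here. Of 13 arginine and ornithine genes 1 rose, and of 9 cofactor, carrier and fumarate genes 2 fell. No regulator and no pyrimidine gene was called. Such counts do not set these lists apart from all genes. Gatm, which uses arginine to make the creatine precursor, was at 0.51 (SE 0.13, adjusted p = 0.0104) against control in limma, and at 0.25 (adjusted p = 0.134) with a common array median. Slc25a10, the dicarboxylate carrier, was at -0.44 (SE 0.14, adjusted p = 0.0363), or -0.39 (adjusted p = 0.0717) under quantile normalization, and the malate dehydrogenase Mdh1 at -0.35 (SE 0.09, adjusted p = 0.00677), a call that held under both other scalings. The 80 mg/kg day 24 array with the lowest summed hepatocyte marker signal held the lowest signal of its group for every member but Nags, for example Cps1 at 3837, Arg1 at 4127 and Otc at 3016. Its Nags signal of 793 was the highest of the group.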
